A study of Mus musculus with 12 samples.

Results

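The 10 genes described here belong to the NRF2 oxidative stress response: Nfe2l2, Keap1, Nqo1, Slc7a11, Gclc, Gclm, Txnrd1, Srxn1, Prdx1 and Sqstm1. They were taken by name from the 46102 genes left after numbered copies of a gene had been summed, of which 16775 were above 0 in at least 1 library. Each of the 10 was listed once, so nothing had to be summed for them. Their RNA was measured in leukemic stem and progenitor cells of a mouse model of chronic myeloid leukemia (CML), with and without imatinib, a drug that blocks BCR-ABL1.

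The mice were C57BL/6. Donor bone marrow came from 5FU-treated G0M mice, in which Vav1-Cre, active in blood cells, switches on a G0 marker (G0M) in the Rosa26 allele. The marker is the fluorescent protein mVenus fused to a mutant of the cell cycle inhibitor p27 (Cdkn1b). The marrow was transduced with a retrovirus carrying human BCR-ABL1 and GFP and was transplanted into lethally irradiated wild-type mice, so the cells of all 4 groups carry G0M and BCR-ABL1. BCR-ABL1+ Lin- Sca1+ cKit+ CD27+ cells from bone marrow and spleen were sorted into G0M+ cells (double positive, DP) and G0M- cells (single positive, SP). The same sorts from mice given imatinib by oral gavage, at 40 mg/kg once daily from day 10 after transplantation, are called IMDP and IMSP cells. The study used female mice of 6 to 12 weeks. Each group has 3 libraries of 100 cells, and the labels do not say whether these came from separate mice or from pooled ones, so the p values measure the spread between libraries, which may be technical. In bulk RNA of sorted cells, fewer cells that express a gene and less RNA per cell cannot be told apart.

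NRF2, encoded by Nfe2l2, is a transcription factor that is held at a low level by KEAP1, which hands it to the CUL3 ubiquitin ligase for degradation. When oxidants or electrophiles modify KEAP1, or when the autophagy receptor p62 (Sqstm1) binds it, NRF2 escapes, enters the nucleus and pairs with small MAF proteins on antioxidant response elements. Its classical targets make glutathione, recycle thioredoxin and peroxiredoxins, and reduce quinones. Much of this control acts on the NRF2 protein, which RNA levels do not show.

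The deposited unit, RPKM, divides the reads of a gene by its transcript length and by the library's total, so levels can be compared between genes. Library totals ranged from 11.37 M to 20.57 M reads, of which listed genes took 25.5 to 36.6%. The lowest shares, 25.5% and 26.7%, belonged to IMDP libraries 2 and 3 (IMDP2 and IMDP3). Kit, Ly6a and Cd27, the genes of the cKit, Sca1 and CD27 markers of the sort, were above 0 in every group. So were Cd34 and Ptprc, which were not sort markers. Of these 5 genes, 1 was higher in G0M+ cells averaged over treatments. The mean of Ly6a was 11.7 RPKM in DP against 4.55 in SP cells, and 19 in IMDP against 6.63 in IMSP cells. All 8 genes of a proliferation list were lower in DP than in SP cells, where 1.98% of all genes tested were lower. All 8 were also lower in IMDP than in IMSP cells, where 23.3% were. Their summed level was 22.1 to 86.2 RPKM in G0M+ and 237 to 316 RPKM in G0M- libraries. Of 11 mast cell and basophil genes, 4 of the 7 tested were higher in G0M+ cells averaged over treatments, where 5.32% of all genes were higher. Cma1 and Prss34 reached 1 RPKM, the level needed for testing, only in G0M+ libraries, so the filter favoured that count. The summed level was 80.1 to 298 RPKM in DP, 25.4 to 202 in IMDP, 20.2 to 21.6 in SP and 16.1 to 26.4 in IMSP libraries. Cma1, Mcpt1, Mcpt4 and Tpsb2 of that list were at 0 in all SP and all IMSP libraries. Most were also near 0 in most G0M+ libraries. In this order their medians were 14.3, 0, 0.129 and 0 RPKM in DP and 0.247, 0, 0 and 0 in IMDP libraries. Their highest values were 28.5, 0.0621, 2.52 and 8.13 RPKM in DP and 25.6, 4.74, 13.2 and 11.1 in IMDP libraries. The summed level of 9 erythroid genes was 208 to 268 RPKM in DP, 55.1 to 148 in SP, 58.4 to 484 in IMDP and 10.7 to 72.9 in IMSP libraries. Of 10 neutrophil and monocyte genes, 3 of the 6 tested were lower in G0M+ cells (median log2 fold change -2.19), where 21% of all genes were lower. Their summed level was 73.6 to 1490 RPKM in DP, 77 to 300 in IMDP, 399 to 2737 in SP and 530 to 2330 in IMSP libraries. The summed level of 6 megakaryocyte genes was 26.3 to 122 RPKM in DP, 13.2 to 77 in IMDP, 11.8 to 35.8 in SP and 7.41 to 29.9 in IMSP libraries. The part that these differences between the sorted populations play in the results below was not tested.

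The sequence that NRF2 and small MAF proteins bind holds the core TGACNNNGC, so the promoters of the 10 genes were searched for these letters on both strands. RefSeq promoter windows (GRCm38.p6), which reach from 250 bases before to 50 bases after a gene's start, were given for 9 genes, with 3 windows for Txnrd1, 1 for each of the others and none for Gclc. The core was found in 5 of these 11 windows, and in 12.4% of all 32851 promoter windows of the same length. The 29 bases around each match let the reader compare genes called between the populations (Srxn1 and Prdx1) with genes that were not called. The Prdx1 calls were lost with other scalings of the libraries. Keap1 and Sqstm1, also called averaged over treatments, held no core. The 29 bases are written along the gene's strand with the match in capitals, and a match on the opposite strand reads GCNNNGTCA.
Nfe2l2, chr2:75704885-75704913, minus strand: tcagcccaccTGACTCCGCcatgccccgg
Gclm, chr3:122245413-122245441, plus strand: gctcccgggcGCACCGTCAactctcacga
Txnrd1, chr10:82859104-82859132, plus strand: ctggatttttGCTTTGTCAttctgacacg
Srxn1, chr2:152105542-152105570, plus strand: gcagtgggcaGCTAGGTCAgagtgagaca
Prdx1, chr4:116685456-116685484, plus strand: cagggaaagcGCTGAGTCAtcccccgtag

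In Prdx1 the match began 133 bases before the start of the gene and read TGACTCAGC on the opposite strand, a stricter form that 0.454% of all windows held. These letters contain TGACTCA, the motif of AP-1 factors, which 5.2% of all windows held, so the motifs overlap. A further TGACTCA, apart from the core, began 237 bases before the start of Prdx1, on the gene's strand. In Srxn1 the core began at base 29 after the start, and TGACTCA was found 45 and 102 bases before it, on the opposite strand. The first of these read:
Srxn1, chr2:152105468-152105496, plus strand: caaattcacccTGAGTCAgcggccgggcg
The second read:
Srxn1, chr2:152105411-152105439, plus strand: ctcggagggccTGAGTCAccacgctgtgc
No core was found in the windows of Keap1, Nqo1, Slc7a11 and Sqstm1. A match is a description of letters in this window and not a binding site.

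Prdx1, with a median of 62.3 RPKM over the 12 libraries, was the most abundant of the 10 genes per length. It was followed by Sqstm1 (median 27.4 RPKM), Txnrd1 (25.6), Gclm (17.9), Nfe2l2 (8.24), Gclc (7.39), Keap1 (5.22), Srxn1 (1.96), Nqo1 (1.4) and Slc7a11 (0.203). The ranges of neighbours in this order overlapped, with 3 exceptions. Every Gclm library (12.6 RPKM or more) lay above every Nfe2l2 library (11.8 or less), every Keap1 library (4 or more) above every Srxn1 library (2.99 or less), and every Nqo1 library (0.526 or more) above every Slc7a11 library (0.386 or less). Across libraries, Keap1 (1.77-fold from lowest to highest) and Txnrd1 (1.87-fold) varied least. Apart from Slc7a11, which rests on 1 to 55 reads per library, Sqstm1 varied most (7.61-fold).

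**Figure D1:**
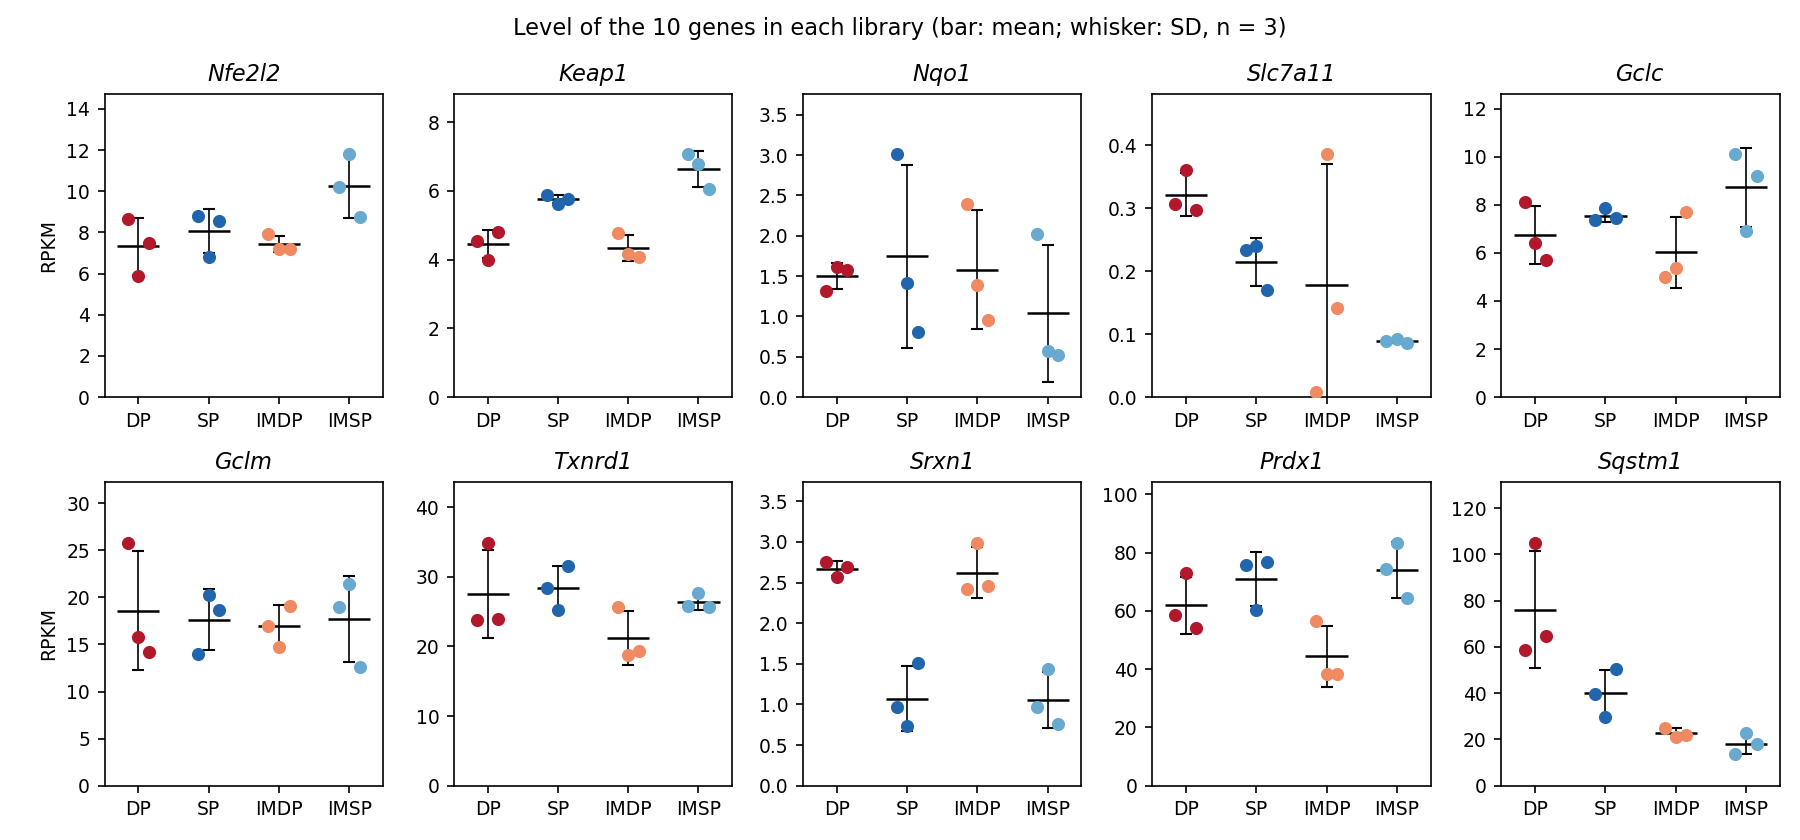
RPKM of each of the 10 genes (vertical axes, each from 0) in the 3 libraries of the DP, SP, IMDP and IMSP groups, with the group mean and SD (n = 3, the SD of Slc7a11 in IMDP reaches below 0 and is cut there). Srxn1 is higher in every DP and IMDP library than in any SP or IMSP library, and Sqstm1 is lower in the imatinib groups. The share of all genes that separate in these ways was not counted.

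The first question was whether quiescent G0M+ cells differ from cycling G0M- cells in these genes. The test was limma on log2(RPKM + 0.1) over the 10072 genes that reached 1 RPKM in 3 or more libraries, with a Benjamini-Hochberg adjusted p of 0.05 as the threshold. It covered 9 of the 10 genes, since Slc7a11 stayed under 1 RPKM in every library. Of the 9, 1 gene was higher in DP than in SP cells (Srxn1), where 0.288% of all genes tested were higher. Under imatinib, 1 gene was higher in IMDP than in IMSP cells (Srxn1, against 2.37% of all genes), and 2 were lower (Keap1 and Prdx1, against 23.3% of all genes), the latter a share near the background. Averaged over treatments, Srxn1 and Sqstm1 were higher in G0M+ cells (5.32% of all genes were) and Keap1 and Prdx1 lower (21% of all genes were). The comparison of DP with SP and that of IMDP with IMSP share no library, and the average uses both.

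The RPKM scale bears on the falls. The median log2 difference of all genes between IMDP and IMSP cells was -0.25 on the RPKM scale, 0.02 after scaling each library to its median gene and 0.16 after scaling to the sum of all values (TPM). The share of called genes that were lower went from 90.7% to 59.3% and 39% with these scalings. For the average over treatments, the same share went from 79.8% to 52.7% and 37.5%. Fold changes of the 10 genes are therefore also given relative to these scalings where a call depends on them.

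Srxn1 encodes sulfiredoxin, which repairs peroxiredoxins that have been overoxidized by peroxide. It lies on chromosome 2 (152105524 to 152111376, GRCm38). Its level was 2.75, 2.57 and 2.69 RPKM in the DP libraries 1 to 3 and 0.968, 0.734 and 1.51 RPKM in the SP libraries. Under imatinib it was 2.42, 2.99 and 2.46 RPKM in IMDP and 0.971, 1.44 and 0.765 RPKM in IMSP libraries. Every G0M+ library lay above every G0M- library in both treatments, with 88 to 125 reads per G0M+ library and 29 to 57 per G0M- library. The log2 fold change was 1.30 (SE 0.27, adjusted p = 0.024) in DP against SP and 1.27 (SE 0.27, adjusted p = 0.00787) in IMDP against IMSP cells. The average was 1.28 (SE 0.19, adjusted p = 0.000878). Its DP against SP call was lost without any 1 of 5 libraries (DP1, DP2, DP3, SP1 or SP2, adjusted p 0.0676 to 0.108, log2 fold change 1.08 to 1.32), in a fit of these groups alone (0.0636) and with no filter on low values (0.0584). The call in IMDP against IMSP cells passed under every library left out, with an adjusted p of 0.00609 to 0.037.

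Srxn1 did not move with imatinib beyond its error. Its log2 fold change was -0.03 (95% interval -0.62 to 0.56) in IMDP against DP and -0.00 (-0.59 to 0.59) in IMSP against SP cells. The difference between the population effects under imatinib and vehicle was -0.03 (SE 0.38, adjusted p = 0.985). Changes of up to about the bounds of these intervals cannot be told from none with 3 libraries a group.

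Prdx1 encodes peroxiredoxin 1, an abundant thiol peroxidase of the cytosol that sulfiredoxin serves. It lies on chromosome 4 (116685599 to 116700000). Its level was 56.6, 38.3 and 38.2 RPKM in IMDP libraries and 74.5, 83.4 and 64.3 RPKM in IMSP libraries, without overlap. In vehicle it was 58.6, 72.9 and 54.2 RPKM in DP and 75.8, 60.4 and 76.8 RPKM in SP libraries, which overlapped. The log2 fold change was -0.76 (SE 0.18, adjusted p = 0.0142) in IMDP against IMSP cells and -0.20 (SE 0.18, adjusted p = 0.648) in DP against SP cells, and the difference between these effects did not pass the test (-0.55, SE 0.26, adjusted p = 0.535). The IMDP against IMSP difference did not pass after scaling to the median gene (-0.48, adjusted p = 0.0595) or to TPM (-0.33, adjusted p = 0.167), nor without IMDP2, IMDP3 or IMSP1 (adjusted p 0.0548 to 0.0575). IMDP2 and IMDP3, where Prdx1 was lowest, are the libraries with the lowest share of reads on listed genes, and the part of that share in the result was not tested. The average over treatments was -0.48 (SE 0.13, adjusted p = 0.021), which was also lost after scaling to the median gene (-0.32, adjusted p = 0.0583) and to TPM (-0.23, adjusted p = 0.152), and without DP3 (adjusted p = 0.0581) or IMDP3 (0.0516).

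Txnrd1 encodes cytosolic thioredoxin reductase, which uses NADPH to keep thioredoxin, and through it the peroxiredoxins, in the reduced form. Its level was 23.8, 34.9 and 24 RPKM in DP, 28.4, 25.2 and 31.5 in SP, 25.6, 18.7 and 19.3 in IMDP and 25.8, 27.7 and 25.6 in IMSP libraries. The groups overlapped in all 4 comparisons, and the average log2 fold change in G0M+ cells was -0.19 (SE 0.12, adjusted p = 0.259). The profile of Txnrd1 over the 12 libraries was nearest, among the other genes of the group, to that of Prdx1: the root mean square difference of the standardized profiles was 0.47, against a median of 1.18 over all genes. This is a description over libraries that share depth and composition.

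Keap1, the sensor and adaptor that limits NRF2, lies on chromosome 9 (21229730 to 21239332). Its level was 4.54, 4 and 4.81 RPKM in DP and 5.87, 5.63 and 5.78 RPKM in SP libraries. Under imatinib it was 4.78, 4.17 and 4.08 RPKM in IMDP and 7.07, 6.79 and 6.06 RPKM in IMSP libraries. G0M+ and G0M- libraries did not overlap in either treatment. The log2 fold change was -0.37 (SE 0.13, adjusted p = 0.232) in DP against SP and -0.60 (SE 0.13, adjusted p = 0.00827) in IMDP against IMSP cells. The average was -0.49 (SE 0.09, adjusted p = 0.00379). The IMDP against IMSP call did not pass after scaling to the median gene (-0.33, adjusted p = 0.0549) or to TPM (-0.18, adjusted p = 0.301). The average held at -0.33 (adjusted p = 0.0112) with the median gene and was lost at -0.24 (adjusted p = 0.0634) with TPM.

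Nfe2l2, on chromosome 2 (75675513 to 75704663), had 8.64, 5.89 and 7.47 RPKM in DP and 8.8, 6.82 and 8.57 RPKM in SP libraries. It had 7.91, 7.21 and 7.21 RPKM in IMDP and 10.2, 11.8 and 8.73 RPKM in IMSP libraries. The vehicle groups overlapped and the imatinib groups did not. It differed by -0.14 on the log2 scale (SE 0.17, adjusted p = 0.732) in DP against SP, -0.44 (SE 0.17, adjusted p = 0.0752) in IMDP against IMSP and -0.29 (SE 0.12, adjusted p = 0.0895) on average, so it did not pass the test. With the replicate number as a block, which pairs the imatinib libraries, IMDP against IMSP passed with an adjusted p of 0.0438, where 29% of all genes passed. With the library number block, which makes the same imatinib pairs, it did not (adjusted p = 0.056, where 44.1% of all genes passed), nor after scaling to the median gene (-0.17, adjusted p = 0.423) or to TPM (-0.02, adjusted p = 0.93). The 3 genes with the profile most like Nfe2l2 over the 12 libraries were Zfp101 (root mean square difference 0.38), Ctdsp1 (0.42) and Aldh16a1 (0.43), against a median of 1.15 over all genes. Among those most like Keap1 were Rtel1 and Cenpm (0.22 each), against a median of 1.10. The distance between Nfe2l2 and Keap1 was 0.61.

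**Figure D2:**
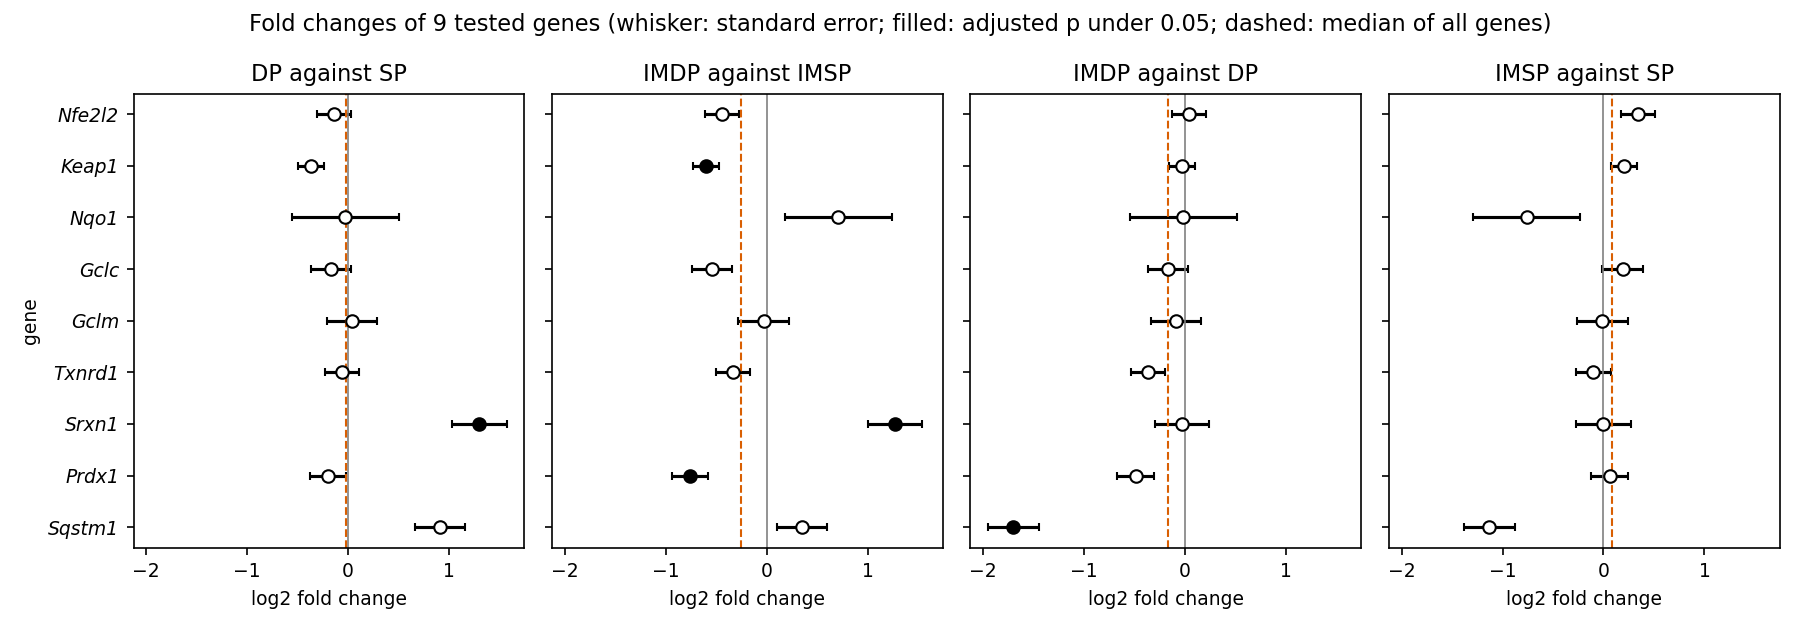
Log2 fold change (horizontal axes) of the 9 tested genes in the 4 pairwise comparisons of groups, with the standard error, filled where the adjusted p was under 0.05 and with the median of all genes dashed. Srxn1 stands at 1.30 and 1.27 in the population comparisons, and Sqstm1 at -1.70 and -1.13 in the treatment comparisons, of which -1.13 did not pass the test.

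Gclc and Gclm encode the catalytic and the modifier subunit of glutamate cysteine ligase, the first and limiting step of glutathione synthesis. Gclc, on chromosome 9 (77754535 to 77794489), had 8.1, 6.41 and 5.72 RPKM in DP, 7.35, 7.85 and 7.43 in SP, 4.99, 5.37 and 7.69 in IMDP and 10.1, 6.9 and 9.18 in IMSP libraries, with overlap in every comparison. Its average log2 fold change in G0M+ cells was -0.35 (SE 0.14, adjusted p = 0.0784). In a fit with a block for neighbouring library numbers, Gclc passed in IMDP against IMSP cells (-0.54, adjusted p = 0.0228) and on average (adjusted p = 0.0286), where 44.1% and 46.9% of all genes passed. With the replicate block it passed in neither (adjusted p = 0.0601 and 0.0706, where 29% and 30.4% of all genes passed). The IMDP against IMSP difference was -0.26 (adjusted p = 0.404) after scaling to the median gene and -0.12 (adjusted p = 0.691) with TPM.
Gclm had 25.8, 15.8 and 14.2 RPKM in DP, 14, 20.2 and 18.7 in SP, 17, 14.7 and 19.1 in IMDP and 19, 21.4 and 12.6 in IMSP libraries. The groups overlapped throughout, and the average log2 fold change was 0.00 (95% interval -0.39 to 0.39). The subunits thus did not pass the test in any comparison of the model without a block.

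Slc7a11 encodes the light chain of the cystine importer xCT, which brings in the cysteine that limits glutathione. It was the least abundant of the 10 genes, with 42 to 54 reads in DP, 22 to 46 in SP, 10 to 15 in IMSP and 1 to 55 in IMDP libraries. As RPKM these are 0.307, 0.361 and 0.297 in DP, 0.234, 0.24 and 0.171 in SP, 0.00809, 0.386 and 0.142 in IMDP and 0.0892, 0.092 and 0.0853 in IMSP libraries. DP libraries lay above SP libraries and IMSP libraries below SP libraries, while the IMDP libraries spanned from the lowest to the highest value of all 12. Of the 10072 tested genes, which leave out Slc7a11, 9.68% were higher without overlap in DP than in SP cells. In IMSP against SP cells 2.72% were lower without overlap. In a two-sided exact permutation test of 6 against 6 libraries, where the smallest possible p is 0.00216, the log2 difference was 0.37 between G0M+ and G0M- libraries (p = 0.357). In the same exact permutation test it was -0.79 between imatinib and vehicle (p = 0.0325, and 0.065 adjusted over these 2 tests), which did not pass the correction.

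Nqo1 encodes the quinone reductase that is often read as a marker of NRF2 activity. It had 1.32, 1.61 and 1.57 RPKM in DP, 3.01, 1.41 and 0.813 in SP, 2.39, 1.39 and 0.951 in IMDP and 2.02, 0.567 and 0.526 in IMSP libraries, on 10 to 96 reads. All groups overlapped. The average log2 fold change in G0M+ cells was 0.34 (SE 0.37, 95% interval -0.47 to 1.15), the widest interval of the 9 tested genes, so a change of about 2-fold could not have been told from none.

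Sqstm1 encodes p62, an autophagy receptor that binds ubiquitin and LC3 and also binds KEAP1. It lies on chromosome 11 (50200152 to 50210820). Its level was 58.7, 105 and 64.6 RPKM in DP and 39.5, 29.8 and 50.3 RPKM in SP libraries. Under imatinib it was 25, 20.9 and 22.1 RPKM in IMDP and 13.8, 22.8 and 17.8 RPKM in IMSP libraries. Every vehicle library, DP or SP, lay above every imatinib library of the 12. The share of all genes that separate the treatments in this way was not counted. The DP libraries lay above the SP libraries, while IMDP and IMSP overlapped.

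The second question was whether imatinib changed these genes. Of the 9 genes, 1 was lower in IMDP than in DP cells (Sqstm1, where 0.338% of all genes were lower), and 1 was lower on average (Sqstm1, where 0.606% of all genes were). The log2 fold change of Sqstm1 was -1.70 (SE 0.25, adjusted p = 0.0338) in IMDP against DP cells and -1.41 (SE 0.18, adjusted p = 0.00761) on average. In IMSP against SP cells it was -1.13 (SE 0.25, adjusted p = 0.354). In that comparison limma called none of the 9 genes and none of all genes (0%), with 1 of the 9 (Sqstm1) and 845 of all genes at an unadjusted p under 0.05, and limma-voom on recovered reads called none either. The effects in the populations did not differ past the threshold (-0.57, SE 0.36, adjusted p = 0.605), and limma and limma-voom called none of the 9 genes and 0% of all genes for this interaction, with 0 of the 9 and 937 of all genes at an unadjusted p under 0.05.

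The average fall of Sqstm1 passed the test with each library left out (adjusted p 0.00504 to 0.0315). The fall in IMDP against DP cells alone was less secure. It was lost after scaling to the median gene (-1.55, adjusted p = 0.0557) and to TPM (-1.40, adjusted p = 0.0664), with a variance that does not follow the mean (adjusted p = 0.0547), in a fit of the 2 groups (adjusted p = 0.144), and without DP1, DP2, SP1, IMDP2, IMDP3 or IMSP3 (adjusted p 0.0559 to 0.117). All imatinib libraries carry library numbers 1 to 6 and all vehicle libraries 7 to 12, so treatment and library number cannot be told apart. The proliferation list had no gene past the threshold in either treatment comparison. Of all genes, 0.367% passed in IMDP against DP and 0% in IMSP against SP cells. In IMDP against DP cells all 8 of its genes had negative fold changes (median -0.67, against -0.17 for all genes). The median there was -1.64 for 7 tested erythroid, -1.25 for 7 mast cell and basophil and 0.73 for 7 macrophage genes. The part of these differences in the fall of Sqstm1 was not tested.

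Between the populations, the average log2 fold change of Sqstm1 was 0.63 (SE 0.18, adjusted p = 0.0247), and this call was lost without DP2 (adjusted p = 0.0551), SP2 (0.0608) or IMSP1 (0.0656). DP2, the library with 105 RPKM, was the highest of all. The fold change was 0.91 (SE 0.25, adjusted p = 0.107) in DP against SP and 0.35 (SE 0.25, adjusted p = 0.326) in IMDP against IMSP cells. With neighbouring library numbers as a block, DP against SP passed with an adjusted p of 0.0118, where 9.73% of all genes did.

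Libraries with neighbouring library numbers, 1 G0M+ and 1 G0M- library each, deviated together from their group means, with correlations across genes of 0.43 to 0.65. Within these 6 pairs, Srxn1 was higher in the G0M+ library in 6, by 0.73 to 1.77 on the log2 scale. Keap1 was lower in the G0M+ library in all 6 pairs (-0.69 to -0.28) and so was Prdx1 (-1.12 to -0.04). Sqstm1 was higher in 5 pairs, by 0.71, 0.98 and 1.06 in the vehicle pairs and by 0.86, -0.12 and 0.31 in the imatinib pairs. Slc7a11 was higher in 5, Nqo1 in 4, Gclm in 3 and each of Nfe2l2, Gclc and Txnrd1 in 1 of the 6. Of all 10072 genes, 11.3% were higher and 24.9% lower in the G0M+ library in all 6 pairs, so a gene that was lower in all 6 was not unusual. With median scaling these shares were 20.2% and 18.4%, and with TPM scaling 25.3% and 13.9%. Srxn1, Keap1 and Prdx1 kept their sign in all 6 pairs with both scalings, but Prdx1 differed in 1 pair by as little as -0.04 and -0.02. Sqstm1 was higher in all 6 pairs with median scaling (0.30 to 1.09) and with TPM scaling (0.41 to 1.22).

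**Figure D3:**
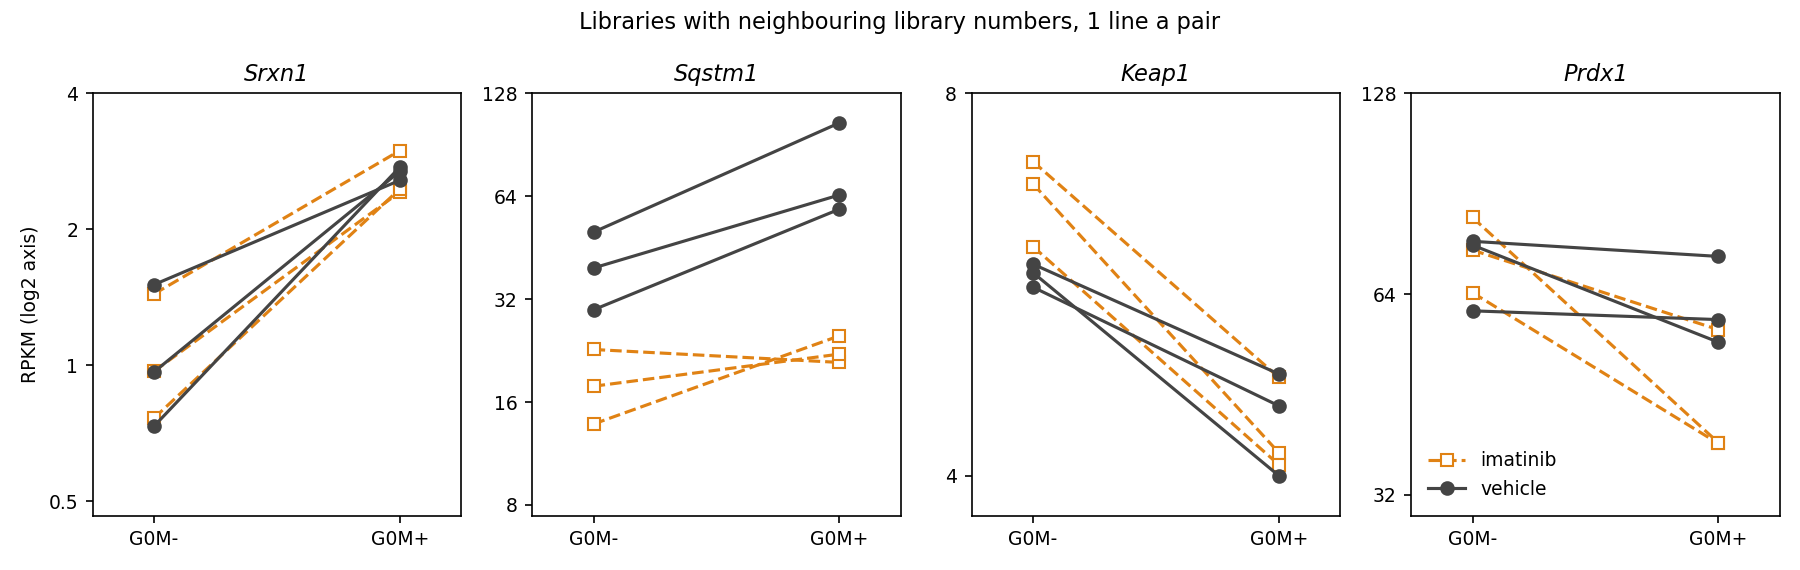
RPKM (vertical axes, log2 scale) of Srxn1, Sqstm1, Keap1 and Prdx1 in the G0M- and the G0M+ library of each of 6 pairs of neighbouring library numbers, in vehicle (3 solid lines) and imatinib (3 dashed lines). Srxn1 rises along all 6 lines and Keap1 and Prdx1 fall along all 6, while the imatinib lines of Sqstm1 lie below all of its vehicle lines.

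The count of libraries that do not overlap was made for the 9 tested genes. By it, Srxn1 and Sqstm1 were higher and Keap1 lower in DP than in SP cells, where 9.68% of all genes were higher and 12.7% lower without overlap. In IMDP against IMSP cells Srxn1 was higher and Nfe2l2, Keap1 and Prdx1 were lower, where 6.21% of all genes were higher and 32.8% lower. In IMDP against DP cells Sqstm1 was lower, where 4.58% of all genes were higher and 19% lower. In IMSP against SP cells Keap1 was higher and Sqstm1 lower, where 11.1% of all genes were higher and 2.72% lower.

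Lists of genes around these 10 were counted in the same fit, in G0M+ against G0M- cells averaged over treatments, where all genes had a median log2 fold change of -0.13. In that comparison 5.32% of all genes were higher and 21% lower. With median scaling these shares were 11.1% and 12.4%, and with TPM scaling 14.8% and 8.9%, and the counts of each list stand beside them as a description. Of 16 other regulators of the pathway, 1 was higher and 5 lower (median -0.21). Cul3, the ligase scaffold that KEAP1 recruits, was lower (-0.41, adjusted p = 0.00616), and so were Palb2 (-0.70, adjusted p = 0.00874) and Nfe2l1, a relative of NRF2 that controls proteasome genes (-0.34, adjusted p = 0.0275). Bach2, a repressor of the same family as BACH1, was higher (0.90, adjusted p = 0.0131), while Bach1, which competes with NRF2 for its elements, had a fold change of 0.27 (adjusted p = 0.217). After scaling to the median gene, Cul3 (-0.25, adjusted p = 0.0342), Palb2 and Bach2 still passed and Nfe2l1 (-0.18, adjusted p = 0.156) did not. The count for the list was 2 higher and 2 lower with that scaling and 4 higher and 1 lower with TPM.

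Among genes that use or supply reducing power, none of 11 tested NADPH supply genes was higher and 4 were lower (median -0.48). Of all genes, 21% were lower. The 4 were G6pdx, the entry enzyme of the pentose phosphate pathway (-0.77, adjusted p = 0.00474), Me2 (-0.54, adjusted p = 0.0239), Idh2 (-0.52, adjusted p = 0.038) and Nadk, the kinase that makes NADP from NAD (-0.48, adjusted p = 0.0474). G6pdx and Me2 still passed after scaling to the median gene, and the count was then 2 lower and 0 higher, where 12.4% of all genes were lower. With TPM it was 1 lower and 0 higher, where 8.9% were lower.
Of 24 tested genes of glutathione synthesis and use, 0 were higher and 3 lower (median -0.18), namely the glutathione peroxidase Gpx1 (-0.59, adjusted p = 0.0221), Glrx5 (-0.63, adjusted p = 0.0221) and Abcc4 (-0.53, adjusted p = 0.0339). The share that was lower was below that of all genes. With TPM the count turned to 3 higher and 1 lower. Of 18 thioredoxin and peroxiredoxin genes other than those above, 1 was higher and 3 lower (median -0.12): Sesn3 (0.75, adjusted p = 0.0356) was higher, and thioredoxin itself, Txn1 (-0.49, adjusted p = 0.0223), Txndc17 (-0.50, adjusted p = 0.0208) and Msrb1 (-1.13, adjusted p = 0.0435) were lower. The share that was lower was again below that of all genes. Here too TPM turned the count, to 4 higher and 0 lower. Txnip, an inhibitor of thioredoxin, had a fold change of 0.49 (adjusted p = 0.0882). Of 4 tested genes of superoxide dismutases and catalase and of 6 tested NADPH oxidase subunits, 0 passed the limma threshold.

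Hmox1, the heme oxygenase that NRF2 and BACH1 both control, stood out from these lists. Its level was 0.901 to 4.94 RPKM in DP, 1.82 to 2.82 in IMDP, 0.0471 to 0.308 in SP and 0.167 to 0.329 in IMSP libraries, without overlap. On the log2 scale the difference was 3.60 (SE 0.59, adjusted p = 0.00733) in DP against SP and 2.93 (SE 0.59, adjusted p = 0.00617) in IMDP against IMSP cells. Hmox1 reached the filter of 1 RPKM only in G0M+ libraries, so it entered the test through the groups where it is high. Of 11 tested heme and iron genes, 2 were higher (Hmox1 and the iron exporter Slc40a1, 1.94, adjusted p = 0.0418) and 1 lower (Blvra, -0.61, adjusted p = 0.046). Hmox1 and Slc40a1 are also on the list of 12 macrophage genes, of which 5 of the 7 tested were higher in G0M+ cells. Hmox1 and Slc40a1 are themselves among the 7. Hmox1 and C1qc reached 1 RPKM only in G0M+ libraries, so the filter favoured that count. Cd68 and Csf1r had means of 4.54 and 6.03 RPKM in IMDP cells, against 4.65 and 12.8 in IMSP cells. In vehicle their means were 2.74 and 2.44 RPKM in DP cells, against 2.63 and 2.25 in SP cells. The summed level of that list was 10.5 to 24.1 RPKM in DP, 3.85 to 9.43 in SP, 21.9 to 25.7 in IMDP and 7.15 to 38.5 in IMSP libraries, and C1qa, C1qb, C1qc and Cd5l were at 0 in all SP and all IMSP libraries. Whether macrophage RNA contributes to the Hmox1 level was not tested.

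Of 13 other tested detoxification genes, 2 were higher, Cbr1 (0.62, adjusted p = 0.0189) and Abhd4 (0.42, adjusted p = 0.0434), and 2 lower, Akr1a1 (-0.35, adjusted p = 0.0273) and Ugdh (-0.44, adjusted p = 0.0457). Both rises still passed after scaling to the median gene and neither fall did, and the count was then 3 higher and 0 lower. Of 21 tested autophagy genes other than Sqstm1, 3 were higher (median 0.12): the receptor Calcoco1 (1.03, adjusted p = 0.00489) and the LC3 family genes Map1lc3b (0.50, adjusted p = 0.0199) and Gabarapl1 (0.64, adjusted p = 0.0381). Tollip was lower (-0.34, adjusted p = 0.0162), a call lost after scaling to the median gene, while the 3 rises remained past the threshold. With imatinib, averaged over populations, 0 of the 21 were called and their median was -0.29, against -0.05 for all genes.

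ATF4, a transcription factor of the amino acid response, shares targets such as Slc7a11 with NRF2. Of 23 tested genes of that response, 0 were higher and 8 lower (median -0.32). The serine and one-carbon genes Mthfd2 (-1.35, adjusted p = 0.00191), Psat1 (-1.05, adjusted p = 0.00266) and Shmt2 (-0.80, adjusted p = 0.0055) and the glycyl tRNA synthetase Gars (-0.79, adjusted p = 0.0033) led the list, and all 4 passed after scaling to the median gene, where the count was 5 lower. Atf4 itself was lower on average (-0.46, adjusted p = 0.0307), which was lost with that scaling (-0.30, adjusted p = 0.115). With imatinib its fold change was -0.66 (adjusted p = 0.0512). Averaged over populations, the 23 genes had a median of -0.43 with imatinib, against -0.05 for all genes. Of the 23, 0 were higher and 1 lower, where 0.606% of all genes were lower. Proliferation genes fell in the same comparison, and their part in these counts was not tested.

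**Figure D4:**
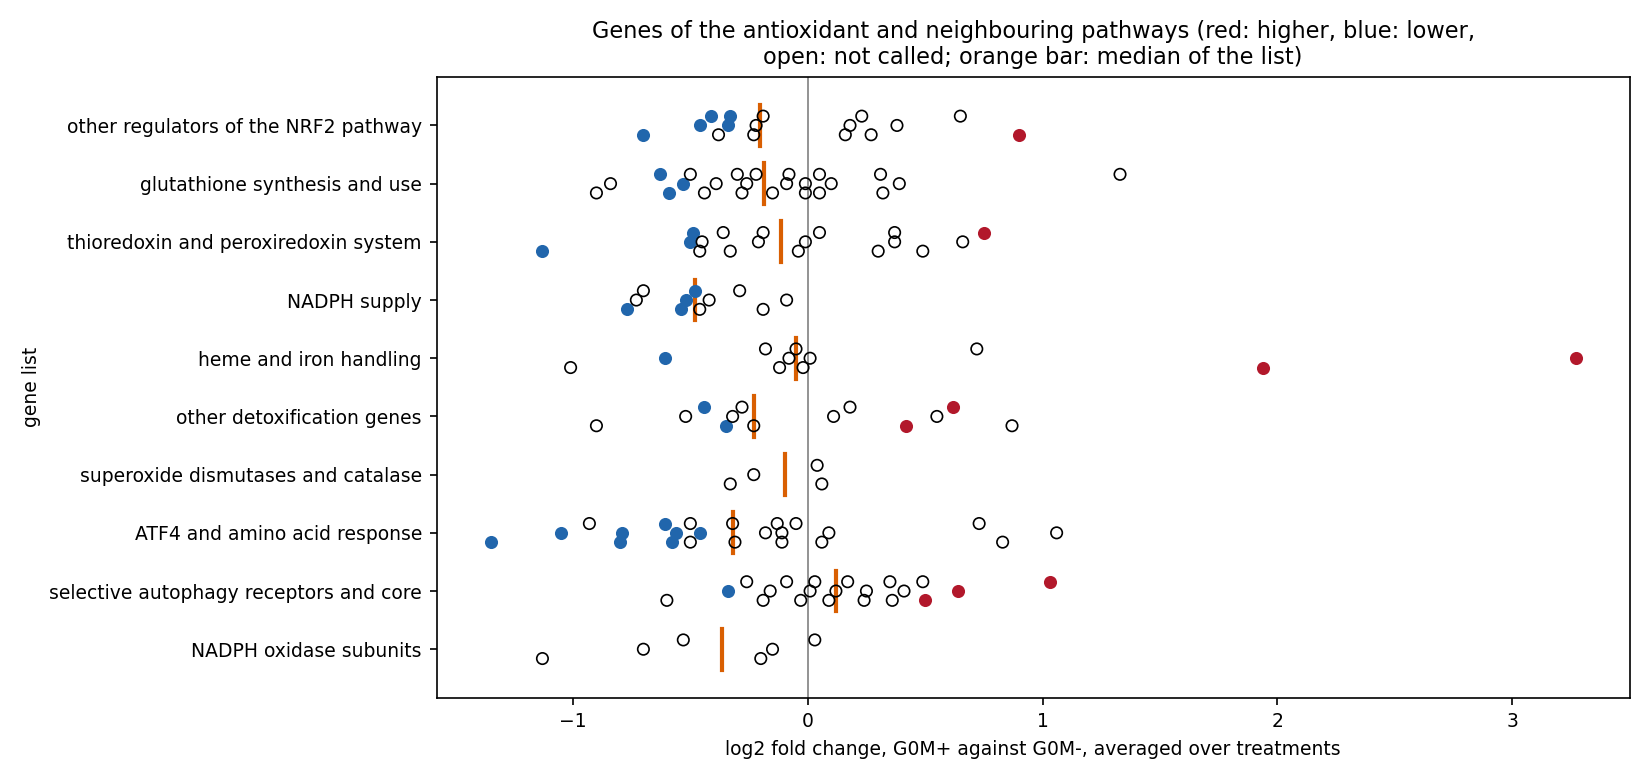
Log2 fold change of G0M+ against G0M- cells averaged over treatments (horizontal axis) for each tested gene of 10 lists of antioxidant and neighbouring pathways, red where higher and blue where lower past an adjusted p of 0.05, with the median of each list as a bar. The 4 called NADPH supply genes and the 8 called ATF4 genes are all lower, and Hmox1 stands at 3.27.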

How the data were processed

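The 12 RNA libraries were made from 100 cells each, with 3 libraries for every group (DP, SP, IMDP and IMSP). The authors made cDNA with not-so-random primers, which do not mark strand, and Nextera XT libraries, mapped the reads with CLC Genomics Workbench to GRCm38 (the reporting summary names HISAT2 and featureCounts instead), and deposited RPKM values. The submitters' processing notes name GRCm38, mm10 and edgeR. Whether a further normalization is part of the deposited RPKM is not stated.

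Of 48737 features, 17735 were above 0, and whole reads were recovered from the RPKM steps for 17734. Intervals of fold changes cover the spread between libraries, and PCR copies were not marked. The 10072 genes that reached 1 RPKM in 3 or more libraries were fitted in limma 3.58.1 (R 4.3.3) on log2(RPKM + 0.1), which understates changes of low genes, with 4 group means and a variance following the mean, after a check on simulated data. Slc7a11, below the filter, was compared by an exact permutation test. Titles numbered alike paired only IMDP with IMSP libraries (correlation of deviations 0.43 to 0.65 across genes, against -0.30 to -0.10 for DP and SP). Neighbouring library numbers paired all libraries (0.43 to 0.65). Alternatives changed the scaling, filter, pseudocount, variance model, groups, blocks, count model and libraries, and a replicate block over both treatments and scalings of the pair differences were added after seeing the data. Named genes were the 10 genes, up to 4 genes of each list with the smallest adjusted p averaged over treatments, Hmox1, Atf4, Bach1 and Txnip, and the 3 genes most like each of Nfe2l2 and Keap1, of which 1 is not reported here. The genes and lists were chosen with earlier results of these data known. Promoters came from RefSeq (GRCm38.p6). Figures used matplotlib.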

Additional observations from a re-analysis of the deposited data

How the results depend on the processing

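Of 1521 alternative fold changes of the 9 tested genes, 1471 kept their side of the threshold, 32 lost a call, 18 gained one and 0 called values reversed. Among the 1471, 96 changed sign with neither value called.

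Of the 9 genes, the number called in DP against SP cells (1) was 0 with no filter on low values or in a fit of these groups alone, 3 with library weights, 2 with the library number block, and 0 to 1 with a library left out. In IMDP against IMSP cells (3) it was 1 with median or TPM scaling, 5 with library weights and 2 to 4 with a library left out. In IMDP against DP cells (1) it was 0 with median scaling, TPM scaling, a variance without trend or a fit of these groups alone, 3 with library weights and 0 to 1 with a library left out. In IMSP against SP cells (0) it was 1 with library weights (Sqstm1). Averaged over treatments (4) it was 2 with TPM scaling and 3 to 6 with a library left out.

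Of all genes, the number called in DP against SP cells (228) was 601 with library weights, 980 with the library number block and 125 to 264 with a library left out. In IMDP against IMSP cells (2581) it was 1560 with median scaling, 1586 with TPM scaling, 4731 with library weights, 1553 in a fit of these groups alone, 4446 with the library number block and 902 to 2962 with a library left out. In IMDP against DP cells (37) it was 2 with median scaling, 14 with TPM scaling, 1 with a variance without trend, 1812 with library weights, 0 in a fit of these groups alone, 8 with limma-voom and 0 to 189 with a library left out. In IMSP against SP cells (0) it was 21 with library weights. For G0M+ against G0M- cells averaged over treatments (2648) it was 4731 with library weights, 4721 with the library number block and 1583 to 3061 with a library left out. For imatinib against vehicle averaged over populations (86) it was 162 with median scaling, 246 with TPM scaling, 46 with no filter, 1146 with library weights and 12 to 143 with a library left out. For the interaction (0) it was 0 to 1 with a library left out. Causes were not tested.

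With the replicate block, 4 of the 9 genes and 2920 of all genes were called in IMDP against IMSP cells, where the numbers pair the libraries. In DP against SP cells, where they do not, the block gave 1 and 233. The replicate block over both treatments gave 1 and 38 in IMDP against DP cells.

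The Slc7a11 difference between imatinib and vehicle was -0.69 with TPM scaling (exact permutation p = 0.0823), and -0.30 and -0.17 with pseudocounts of 0.5 and 1 RPKM (exact permutation p = 0.039 each). With a library left out it was -1.03 to -0.60. The exact permutation p was then 0.00216 to 0.0628 and stood at 0.05 or more in 7 of 12 cases. The p values of this paragraph are not adjusted over the 2 tests. The difference between G0M+ and G0M- was 0.24 to 0.67 with a library left out. The value of 0.67 had p = 0.0303 in the exact permutation test without IMDP1, the library with 1 read.

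Depth limits Slc7a11 (1 to 55 reads per library), Nqo1 (10 to 96 reads) and Srxn1 (29 to 125 reads) most, and 3 libraries of 100 cells a group limit all 10 genes.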
